A study of Drosophila melanogaster with 12 samples.

Results

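The regions described here are the 3′-end clusters of genes that used essentially 1 polyadenylation end in heads of adult Drosophila melanogaster. A 3′-end cluster is a group of neighbouring transcript ends of 1 gene, counted together in every library. To find the members, the counts of the 4 input libraries were summed for each cluster, and genes with at least 400 summed counts were kept. A gene was called a one-end gene when 1 of its clusters, the main end, held at least 90% of these counts, and all its other clusters are called minor ends. This gave 2486 main ends, 1 per gene, among 56392 clusters of 10422 genes, or 41.6% of the 5975 genes with the minimum count. Because the 4 inputs chose the members, values of the inputs describe the choice and are not tested, whereas Pum xRIP against control xRIP did not enter it.

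RNA was recovered by xRIP-3′-seq, an immunopurification of cross-linked RNA whose product is sequenced from the 3′ end. In it UV light fixes proteins to RNA and an anti-Flag antibody recovers the tagged protein. The 4 Pum xRIP libraries came from pumFlag flies, whose endogenous Pumilio (Pum) carries a C-terminal Flag-HA tag, and the 4 control xRIP libraries came from w1118 flies without a tag. The 4 input libraries, called pum, w118, fne and rbp9 here, came from head homogenate before immunopurification, and the last pair of names covers 2 inputs of mixed genotype. All groups used UV-cross-linked heads of males and females mixed in equal amounts, and the age of every sample was labelled only as adult. The submitters labelled the genotype of every sample as wt, so the tag was read from the study's methods. The Pum xRIP and control xRIP flies differed in strain as well as in the tag, and an effect of strain on the recovered RNA cannot be told apart from an effect of the tag in the xRIP libraries alone. The replicates were numbered samples. Nothing in the labels said which of them came from separate collections of flies, so p-values measure the spread between these samples.

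Cleavage and polyadenylation set the 3′ end of a messenger RNA, and a gene with several polyadenylation sites makes transcripts that differ in the length of the 3′ untranslated region (3′ UTR). In neurons, many genes use sites far downstream and carry long 3′ UTRs. Pum belongs to the PUF family of RNA-binding proteins, which recognise a short sequence in 3′ UTRs, the Pumilio Response Element (PRE), and repress translation or promote decay of their targets. In the fly, Pum acts in embryonic patterning, in germline stem cells and in neurons, where it sets excitability and the shape of dendrites and synapses.

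Sequences are shown first for the one-end genes that carried PREs and were recovered at higher levels in Pum xRIP than in control xRIP. The PRE was searched as TGTANATA, N being any base, on the transcript strand of the longest annotated 3′ UTR. This 3′ UTR can reach beyond the main end, so a counted transcript may lack the PRE. In JIL-1, on the minus strand, the main end was number 3 of 14 clusters, and 48 bases lay between the PRE and the end of the 3′ UTR. The windows of 30 bases were read 5′ to 3′ from the release 6 (dm6) genome, and capitals mark the PRE. They lie in the 3′ UTRs of CG14621 (chrX:22447609-22447638, plus strand, 1 of 4 PREs), CG14186 (chr3L:20098257-20098286, minus strand, 1 of 3), CG18622 (chr3R:16983731-16983760, minus strand, 1 of 4), side-IV (chr3R:13463548-13463577, plus strand, 1 of 3), Miro (chr3R:24034423-24034452, minus strand, 1 of 2), Eaat1 (chr2L:9341187-9341216, plus strand, 1 of 2) and JIL-1 (chr3L:11078789-11078818, minus strand, the only one).
CG14621: caatgcaatgcTGTAAATAaaatgtatttt
CG14186: tctacctgagcTGTATATAaaccgagtgca
CG18622: aagtagactctTGTACATAagcaagcgtag
side-IV: tctaagcgataTGTACATAcatgattatac
Miro: tatcgcactttTGTAAATAcgcgcaaatcc
Eaat1: tactttcaaggTGTACATAatttttaaata
JIL-1: tcaccaaagtcTGTACATAaaaacaatatc

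The second set comes from one-end genes of the other kind, recovered in control xRIP and absent or lower in Pum xRIP, together with a ribosomal protein gene with many counts in every library. Capitals mark AATAAA, the canonical polyadenylation signal, nearest to the annotated 3′ end. The windows lie in Sfp96F (chr3R:25830066-25830095, minus strand), Jon65Aiii (chr3L:6051659-6051688, plus strand), Nplp3 (chr3L:16318646-16318675, plus strand) and RpS14a (chrX:7934643-7934672, plus strand). The signal was followed by 17, 14, 27 and 17 bases up to the annotated end.
Sfp96F: tgtgagaaaaagAATAAAagattctataaa
Jon65Aiii: aagcacagcataAATAAAaacgattaatga
Nplp3: tacattccaagcAATAAAtacctaccatac
RpS14a: taggtgcactgtAATAAAccaggaaaatac

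One-end genes had short 3′ UTRs. The longest annotated 3′ UTR had a median of 184 bases in the 2420 members with an annotated 3′ UTR, against 501.5 bases in genes whose main end held 50% to 90% of the input counts, 1184 bases in genes whose main end held less than 50%, and 227 bases over all annotated genes. A PRE was present in 367 members (15.2%), in 25.6% of the genes with a main end of 50% to 90%, in 40.6% of those below 50% and in 18.6% of all 13543 genes with a 3′ UTR. AATAAA stood in the 50 bases before the most distal annotated end in 60.6% of members, against 57.8%, 57.5% and 55.5% of the genes in those other groups. That annotated end need not be the main end that was counted. A single annotated end was listed for 81.0% of members with a 3′ UTR and for 74.0% of all genes, so the annotation gave several ends to some genes for which 1 end held nearly all counts here.

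Of the 2486 members, 2465 were found in the annotation, of which 2421 were protein-coding. The files held a single cluster for 567 of the genes, and 775 had no input count outside the main end. The median gene had 3 clusters, against 6 and 13 in genes with a main end of 50% to 90% and below 50%. At the limit of the count rule, Spn88Eb, with 400 summed counts, and Fpps and EndoU, with 401, lay just inside, and prt, with 398, and Surf1 and pita, with 399, lay just outside. At the limit of the share, the main end held 90% of the counts of CG2004, 90.019% of those of FAM21 and 90.026% of those of Nubp1, all just inside, and just outside it held 89.986% of those of CG33144, 89.99% of those of CG14823 and 89.995% of those of mRpL17.

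Pum xRIP libraries held 3050717 to 5051009 counts in all, control xRIP libraries 3342790 to 4485996 and inputs 9563433 to 13726254. Main ends of one-end genes took 53.6% to 54.4% of the counts of a library in Pum xRIP, 66.5% to 67.1% in control xRIP, and the inputs gave 57.3% to 60.5%. The 3 ranges did not overlap. Markers of the cell types in a head differed between the groups too, and none of them was at 0 in the inputs. Levels are given as CPM, counts scaled to a library of 1000000 counts. The summed level of 5 neuronal markers (elav, nSyb, Syt1, brp and fne) was 4121 to 4860 CPM in Pum xRIP, 367.7 to 562.4 CPM in control xRIP and 2022 to 2601 CPM in input. Of muscle markers it was 319.6 to 3387 CPM in Pum xRIP, 7932 to 19580 CPM in control xRIP and 253.0 to 1791 CPM in input. Photoreceptor markers, all detected, summed to 9492 to 12220 CPM in Pum xRIP, 5595 to 7721 CPM in control xRIP and 18280 to 27560 CPM in input, and fat body markers to 4307 to 6349, 1789 to 2867 and 4780 to 11650 CPM. Glial markers summed to 158.3 to 281.4 CPM in Pum xRIP, 76.53 to 365.6 CPM in control xRIP, where 1 of 4 was at 0, and 362.4 to 681.9 CPM in input. In the xRIP libraries marker levels also depend on which RNA was recovered, and the paper names Syt1 and brp as Pum targets. The neuronal sum was 2601 CPM in the pum input and 2390 CPM in the w118 input, and the muscle sum 253.0 and 1654 CPM. In such bulk samples recovery, fewer cells of a type and less RNA per cell cannot be told apart. The part of these markers in the results below was not tested.

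The main ends of one-end genes were recovered about as often in Pum xRIP as in control xRIP. At least 1 count was found for 66.0% ± 10.1 of them in Pum xRIP libraries, 63.7% ± 6.59 in control xRIP libraries and 99.8% ± 0.224 in inputs (SD, n = 4 each). The Pum xRIP libraries recovered 64.9%, 54.3%, 78.9% and 66.0%, against 58.5%, 58.0%, 66.9% and 71.5% in the control xRIP libraries. The xRIP groups overlapped. For the main ends of genes with a main end of 50% to 90% the shares were 59.5% ± 10.6, 47.7% ± 6.40 and 99.3% ± 0.423, and for those below 50% they were 56.6% ± 10.8, 32.0% ± 6.89 and 99.4% ± 0.227 in Pum xRIP, control xRIP and input (SD, n = 4 each). The mean of control xRIP was thus lower in genes with more ends, and that of Pum xRIP differed less between the classes. By the definition of the classes, the main end holds a smaller part of the gene where there are more ends. Detected main ends had a median of 387.5, 272 and 168.5 counts in the fne input in these classes. The part of this in the recovery was not tested. With all libraries thinned to the smallest total, 65.9% ± 10.1 and 63.6% ± 6.56 of one-end genes were detected in Pum xRIP and control xRIP (SD, n = 4 each).

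**Figure D1:**
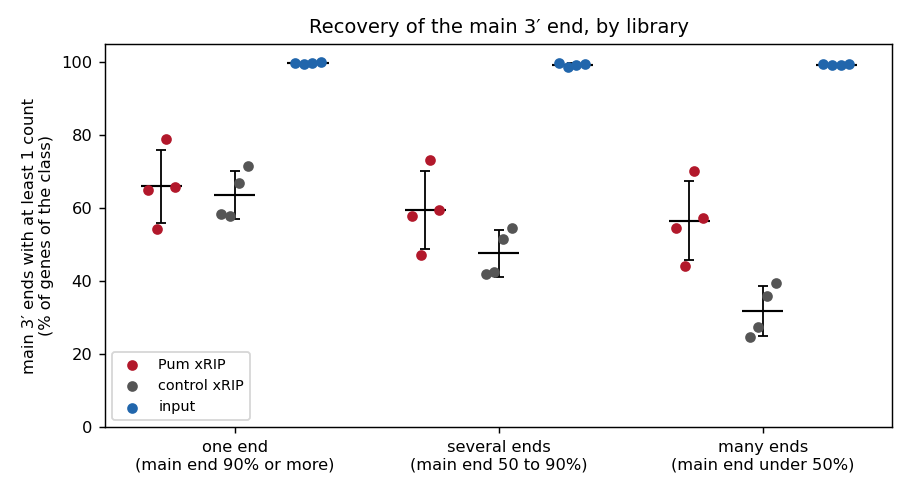
Percent of main ends with at least 1 count (vertical axis) in each library of Pum xRIP, control xRIP and input, for one-end genes, genes with a main end of 50% to 90% and genes with a main end below 50%. Points are libraries, bars are means and error bars are the SD (n = 4). One-end genes lie at 66.0% and 63.7% in Pum xRIP and control xRIP, and genes with many ends at 56.6% and 32.0%.

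Recovery was uneven between replicates. Of the 2486 main ends, 936 (37.7%) had counts in all 4 Pum xRIP libraries and 938 (37.7%) in all 4 control xRIP libraries. At the other extreme, 212 (8.53%) had none in Pum xRIP and 258 (10.4%) none in control xRIP. In all 8 xRIP libraries 653 (26.3%) were found and in none of them 62 (2.49%). The clean opposites were few: 22 main ends had counts in every Pum xRIP library and in no control xRIP library, and 19 in every control xRIP library and in no Pum xRIP library. Detection followed abundance in both groups. When members were split into 4 classes of nearly equal size, those with the fewest input counts had 400 to 810. In this class counts in all 4 libraries were found for 5.95% in Pum xRIP and 6.11% in control xRIP. In the class with 4203 or more they were found for 86.7% in Pum xRIP and 87.9% in control xRIP.

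Next, the level of the main ends was compared between Pum xRIP and control xRIP with the quasi-likelihood test of edgeR over all clusters that passed the filter on low counts. Calls needed an adjusted p under 0.05 and more than a 2-fold difference. Of the 2486 members 1732 passed the filter, and 754 did not. Among these 1732, 50 (2.89%) were higher and 66 (3.81%) lower in Pum xRIP. Among all 5757 clusters tested, 547 (9.5%) were higher and 131 (2.28%) lower. Main ends of genes with a main end of 50% to 90% were called higher in 7.89% and lower in 1.95% of 1433 tested, and those below 50% in 18.3% and 0.232% of 431. The median log2 fold change was −0.28 over the members and 0.41 over all clusters tested, a distance of −0.70 on the log2 scale that was −0.68 with library totals and with the size factors of DESeq2 and −0.80 in a fit of all 3 groups. Of the calls 43.1% were higher here, 45.9% (50 higher and 59 lower) with library totals and 55.3% (57 and 46) with the size factors of DESeq2 in edgeR. With DESeq2, which also changes the test, it was 61.7% (100 and 62), and in the fit of all 3 groups 35.4% (92 and 168). That 3-group fit takes its spread from the inputs too, which chose the members. Its calls are therefore descriptions only, here and below.

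The number of calls depended on single libraries. Without Pum xRIP library 1, 2, 3 or 4 the calls of higher members fell to 18, 25, 21 and 19, and without any control xRIP library at most 43 were left. The lower members numbered 38, 37 and 35 without Pum xRIP library 1, 2 or 4 and 41 and 34 without control xRIP library 3 or 4. Of the 50 higher members, 14 were called without every single library in turn, and of the 66 lower members 28. By level, Pum xRIP stood above control xRIP without overlap in 149 members (8.6%), against 19.0% of all clusters tested, and below it in 196 members (11.3%), against 6.77%. At an unadjusted p below 0.05, edgeR gave 97 higher and 112 lower members of the 1732 tested. The share over all clusters at this threshold is not given here, so nothing is read from these 2 counts.

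One-end genes called higher in Pum xRIP included a small group absent from control xRIP. CG14621 (X, 22444227 to 22447808) had 397.0, 208.9, 281.6 and 197.4 CPM in the Pum xRIP libraries, 0 in all 4 control xRIP libraries and 8.002 to 18.8 CPM in the inputs. Every Pum xRIP library lay above every input. Its level was at least 1343-fold higher in Pum xRIP than in control xRIP when the control group is set at a floor of 3 counts over its 4 libraries, which covers counting error only (edgeR adjusted p = 0.001236). CG14186 (3L, 20098084 to 20103827) had 207.8, 120.4, 340.9 and 359.6 CPM in Pum xRIP, 0 in control xRIP and 12.4 to 28.3 CPM in input, and was at least 1314-fold higher than in control xRIP (edgeR adjusted p = 0.001439). CG42404 (3R, 15250094 to 15257765) had 154.7, 183.3, 108.1 and 308.5 CPM in Pum xRIP, 0 in control xRIP and 52.2 to 96.6 CPM in input, and was at least 946.6-fold higher than in control xRIP (edgeR adjusted p = 0.001799). These 3 genes were called under every alternative tried. 20 of the 50 higher members had no count in control xRIP. Such members passed the filter on low counts only through their Pum xRIP libraries. All tested members at 0 in control xRIP were called, so their number is not evidence of its own.

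JIL-1 (3L, 11078752 to 11093193), a kinase that phosphorylates histone H3, had 151.1, 40.4, 46.0 and 183.9 CPM in Pum xRIP, 0 in control xRIP and 25.8 to 43.3 CPM in input (edgeR adjusted p = 0.008414). The call was lost without Pum xRIP library 4 (0.05206). CG14853, CG1688, CG3703, CG32204, CG18870 and dcma were likewise at 0 in all control xRIP libraries, with means of 81.1 to 121.8 CPM in Pum xRIP and edgeR adjusted p of 0.007042 to 0.01123. CG14853 was not called without Pum xRIP library 1 (0.05214), CG3703 without library 4 (0.07419) and dcma without library 1 or 4 (at most 0.05762), whereas CG1688, CG32204 and CG18870 kept their calls.

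Further members were chosen after their values were seen, as the called genes with the highest Pum xRIP levels or with a known role in neurons or glia. CG18622 (3R, 16983510 to 16987732) had 1039, 758.7, 911.7 and 549.5 CPM in Pum xRIP, 45.0, 50.4, 101.7 and 115.9 CPM in control xRIP and 37.2 to 59.2 CPM in input. The Pum xRIP libraries stood clear of all others, with a log2 fold change over control xRIP of 3.40 ± 0.47 (SE; edgeR adjusted p = 0.002299). Eaat1 (2L, 9333567 to 9341925), the glial glutamate transporter, had 1086, 845.8, 946.8 and 496.1 CPM in Pum xRIP, 189.3, 96.5, 100.8 and 93.4 CPM in control xRIP and 174.0 to 395.4 CPM in input. Its log2 fold change over control xRIP was 2.86 ± 0.41 (SE; edgeR adjusted p = 0.00255), and both CG18622 and Eaat1 were called under every alternative.

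Miro (3R, 24034362 to 24038847), a mitochondrial GTPase that links mitochondria to motor proteins, had 161.6, 222.3, 174.3 and 101.8 CPM in Pum xRIP, 0, 0, 2.09 and 0 CPM in control xRIP and 16.5 to 26.6 CPM in input (log2 fold change 8.28 ± 1.71, SE; edgeR adjusted p = 0.0152). side-IV (3R, 13450590 to 13464184), a cell-surface protein of the Sidestep family, had 398.9, 460.1, 306.2 and 859.3 CPM in Pum xRIP, 8.27, 0, 0 and 0 CPM in control xRIP and 43.6 to 59.9 CPM in input (7.96 ± 1.74, SE; edgeR adjusted p = 0.01912). Pask (2R, 23988738 to 23992049), the PAS domain kinase, had 358.3, 551.0, 213.4 and 250.0 CPM in Pum xRIP, 12.4, 0, 8.08 and 14.5 CPM in control xRIP and 19.96 to 37.0 CPM in input (5.26 ± 1.18, SE; edgeR adjusted p = 0.02148). In each of these the 4 Pum xRIP libraries exceeded all others. The calls were lost without Pum xRIP library 1, 2 or 3 for Miro, without any 1 Pum xRIP library for side-IV, and without any 1 Pum xRIP library or control xRIP library 3 for Pask. The highest adjusted p was 0.05556 for Miro, 0.07143 for side-IV and 0.0691 for Pask.

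One-end genes called lower in Pum xRIP included male reproductive genes. Of the 66, 17 had no count in any Pum xRIP library. These 17 passed the filter on low counts only through their control xRIP libraries, and all tested members at 0 in Pum xRIP were called. CG31226 (3R, 18851305 to 18851798) had 0 in all Pum xRIP libraries, 369.2, 304.8, 263.6 and 133.3 CPM in control xRIP and 0 to 41.0 CPM in input, and was at least 1485-fold lower (floor of 3 counts over the 4 Pum xRIP libraries; edgeR adjusted p = 0.001236). Sfp96F (3R, 25830061 to 25830228), a seminal fluid protein gene, had 0 in Pum xRIP, 164.7, 139.6, 316.8 and 185.5 CPM in control xRIP and 0.0926 to 124.2 CPM in input, at least 1121-fold lower (edgeR adjusted p = 0.001645). Acp95EF, an accessory gland protein gene, had 0 in Pum xRIP and 119.1 to 303.6 CPM in control xRIP (edgeR adjusted p = 0.001645), and Mst57Da, another accessory gland transcript, 0 and 42.9 to 271.6 CPM (edgeR adjusted p = 0.003105). Of these genes, Sfp96F and Mst57Da lie next to each other on 3R, together with the related Mst57Db.

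Jon65Aiii (3L, 6050757 to 6051690), a serine protease of the Jonah family, had 0 in Pum xRIP, 234.2, 155.5, 55.3 and 153.6 CPM in control xRIP and 9.10 to 131.1 CPM in input (at least 867.1-fold lower; edgeR adjusted p = 0.003232). Mst87F, a sperm tail gene chosen after its values were seen, had 0 in Pum xRIP, 141.7, 149.3, 85.6 and 143.3 CPM in control xRIP and 1.67 to 28.6 CPM in input (edgeR adjusted p = 0.003236). These 6 lower genes were called under every alternative tried. The inputs differed in the same direction. The 4 male germ line markers (Mst87F, Mst84Da, Mst84Db and Mst98Ca) summed to 8.89 CPM in the pum input and 164.9 CPM in the w118 input. In Pum xRIP they summed to 0 to 19.4 CPM, where 2 of the 4 were at 0, and in control xRIP to 428.4 to 887.8 CPM. Of these markers 3 are members, and Mst87F and Mst84Db were called lower. The xRIP sums thus repeat values of called genes and are not evidence of their own. Of the 66 lower members, 42 (63.6%) were at least 2-fold higher in the w118 than in the pum input and none the reverse, against 347 (21.5%) and 123 (7.61%) of the 1616 members tested but not called. Of the 50 higher members, 10 (20%) were at least 2-fold higher in the pum input and 11 (22%) in the w118 input. The part of these differences between the inputs in the calls was not tested.

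**Figure D2:**
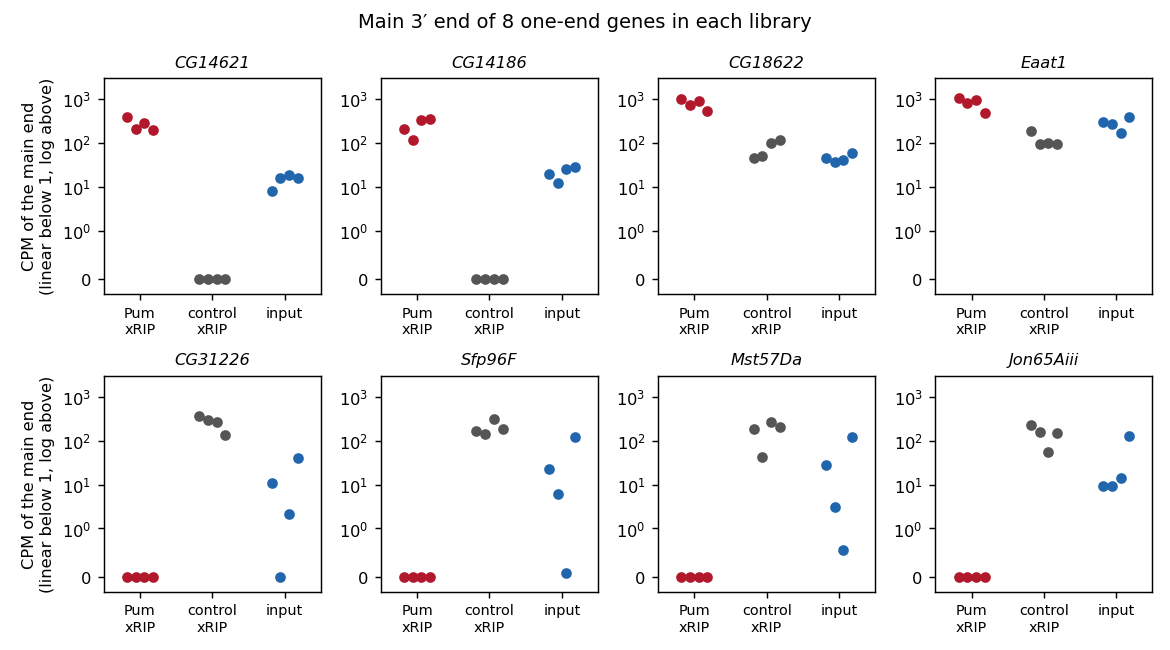
CPM per library (vertical axis, linear below 1 and logarithmic above) of 8 one-end genes in Pum xRIP, control xRIP and input, 1 point per library. CG14621 and CG14186 are at 0 in control xRIP, CG18622 and Eaat1 are higher in Pum xRIP than in control xRIP without overlap, and CG31226, Sfp96F, Mst57Da and Jon65Aiii are at 0 in Pum xRIP.

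The lower members also held abundant genes that were recovered in both groups. Nplp3 (3L, 16318024 to 16318690), a neuropeptide-like precursor, had 1875, 1332, 1938 and 1488 CPM in Pum xRIP, 7676, 6273, 8783 and 6497 CPM in control xRIP and 1135 to 5081 CPM in input, a log2 fold change against control xRIP of −2.10 ± 0.21 (SE; edgeR adjusted p = 0.0005805). CG11458 (3L, 20905795 to 20906331) had 743.1, 671.0, 1030 and 1073 CPM in Pum xRIP, 3474, 5028, 3987 and 3353 CPM in control xRIP and 2111 to 6514 CPM in input (−2.13 ± 0.24, SE; edgeR adjusted p = 0.001236). COX7B (3L, 17425477 to 17426282), a subunit of cytochrome c oxidase chosen after its values were seen, had 903.7, 702.6, 732.0 and 612.2 CPM in Pum xRIP, 2052, 2666, 2041 and 1967 CPM in control xRIP and 652.5 to 1016 CPM in input (−1.53 ± 0.22, SE; edgeR adjusted p = 0.002936). All 3 were without overlap between the xRIP groups and were called under every alternative. Their Pum xRIP levels were below or within the range of the inputs.

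Of the 10 members with the most input counts, 3 more were called higher and 1 more lower. Arr1 (2L, 18078269 to 18081307), an arrestin that quenches activated rhodopsin, had 1951, 2541, 2843 and 2539 CPM in Pum xRIP, 1252, 1023, 1198 and 763.5 CPM in control xRIP and 4722 to 6577 CPM in input (log2 fold change 1.25 ± 0.21, SE; edgeR adjusted p = 0.00601, with the call lost in a fit of all 3 groups). Yp1 (X, 10053811 to 10055498), a yolk protein made in the fat body, had 4438, 2554, 3866 and 2857 CPM in Pum xRIP, 1346, 860.8, 1779 and 988.0 CPM in control xRIP and 3333 to 7262 CPM in input (1.51 ± 0.30, SE; edgeR adjusted p = 0.01299, lost without Pum xRIP library 1 at 0.05556). In both genes Pum xRIP lay above control xRIP without overlap, and its mean lay below that of the inputs.

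CG31904 (2L, 7734415 to 7738809) had 4119, 1643, 4122 and 3322 CPM in Pum xRIP, 11870, 10340, 11060 and 7746 CPM in control xRIP and 2326 to 8927 CPM in input (−1.57 ± 0.30, SE; edgeR adjusted p = 0.01146, lost without Pum xRIP library 4 at 0.05206). 18SrRNA-Psi:CR41602, a pseudogene of ribosomal RNA (X), was higher in Pum xRIP (log2 fold change 1.73, edgeR adjusted p = 0.0004621), but its reads cannot be told apart from those of other copies of the 18S sequence. The remaining 5 were not called. lncRNA:CR34335 had 29820 to 40820 CPM in Pum xRIP, 63790 to 73180 CPM in control xRIP and 70210 to 114600 CPM in input, a difference between the xRIP groups that stayed under 2-fold (−0.95 ± 0.14, SE; edgeR adjusted p = 0.003027). Likewise under 2-fold were Arr2, the second arrestin (0.77), RpS14a (−0.89), RpS15 (−0.61) and RpL7A (−0.16), of which the first 3 had an edgeR adjusted p of 0.0309, 0.01115 and 0.01228 and RpL7A 0.5701. With the size factors of DESeq2, RpL7A lay at 0.06.

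The inputs chose the members, so levels against input are given as descriptions only, with no test. On pooled CPM, CG14621 was 17.8-fold, CG18622 17.3-fold, CG14186 11.5-fold, Pask 10.99-fold, side-IV 9.92-fold and Miro 7.39-fold higher in Pum xRIP than in input, whereas Eaat1 was 2.85-fold higher.

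PREs were set beside the calls. The members called higher include the 20 at 0 in control xRIP, and those called lower the 17 at 0 in Pum xRIP. All of these passed the filter on low counts through 1 group only, and all were called. Shares and medians were not computed without them, here and by length of the 3′ UTR. A PRE was found in 29 of the 46 members called higher that had an annotated 3′ UTR (63.0%), in 2 of the 62 called lower (3.23%) and in 252 of the 1575 tested but not called (16.0%). Among the 1400 tested members without a PRE, 17 (1.21%) were called higher and 60 (4.29%) lower, and their median log2 fold change was −0.42. Among the 283 with at least 1 PRE, 29 (10.2%) were higher and 2 (0.707%) lower, with a median of 1.12. The share called higher was 6.11% with 1 PRE (n = 229), 22.5% with 2 (n = 40) and 42.9% with 3 or more (n = 14), and the medians were 0.84, 1.83 and 3.01. For the same letters in reversed order (ATANATGT), the share was 23.9% in members called higher and 8.06% in those called lower. It was 12.3% in members tested but not called and 15.3% in all genes.

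The median 3′ UTR had 582.5 bases in members called higher, 123 in those called lower and 176 in those not called, and a longer 3′ UTR holds a PRE more often. Within classes of length the order held, on few called members. In 3′ UTRs under 200 bases, 4 of 63 members with a PRE (6.35%) and 9 of 844 without (1.07%) were called higher. From 200 to under 500 bases it was 5 of 98 (5.1%) and 4 of 326 (1.23%). From 500 to under 1000 bases it was 5 of 67 (7.46%) and 1 of 163 (0.613%), and for 1000 bases or more 15 of 55 (27.3%) and 3 of 67 (4.48%). Length still differed inside the classes. The median 3′ UTR with and without a PRE had 119 and 92, 353 and 306, 649 and 664, and 1552 and 1343 bases. The median log2 fold changes with and without a PRE were 0.33 and −0.61, 0.84 and −0.22, 1.68 and 0.13, and 2.86 and 0.39 in these 4 classes. In the fits with other settings, 47.7% to 75% of the members called higher and 1.35% to 5.17% of those called lower carried a PRE. A PRE is a match of letters, and binding at these sites was not measured. The main end was the most downstream cluster in 46.2% of one-end genes with 2 or more clusters and a known strand. In other genes the transcript counted may end before a PRE of the longest 3′ UTR.

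**Figure D3:**
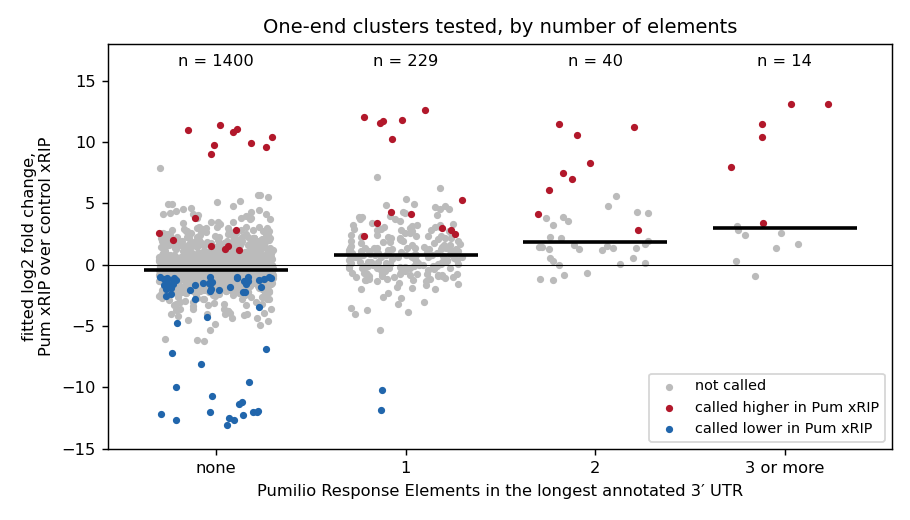
Log2 fold change of Pum xRIP over control xRIP (vertical axis) of tested one-end clusters, by the number of PREs in the longest annotated 3′ UTR (horizontal axis). Each point is a cluster, red ones called higher, blue ones called lower, and black lines are medians, which lie at −0.42, 0.84, 1.83 and 3.01 for 0, 1, 2 and 3 or more PREs.

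Gene groups are described by their one-end members. Counts of a list are of its genes with the minimum input count. Calls of a list stand beside 9.5% higher and 2.28% lower over all clusters tested. Over the members tested these shares were 2.89% and 3.81%. The cytoplasmic ribosomal protein genes were one-end genes in 46 of 64 cases, and 97.8% of the 46 were found in all 4 libraries of each xRIP group. Their summed level was 140700 to 160000 CPM in Pum xRIP, 226300 to 241700 CPM in control xRIP and 96520 to 110900 CPM in input. Of 45 tested 1 (RpS29) was called lower and none higher, with a median log2 fold change of −0.58, against 0.41 over all clusters tested. The lower calls were 0 with DESeq2, its size factors or library totals, 0 to 5 with a library left out and 19 in the 3-group fit. Of 41 one-end genes of oxidative phosphorylation (of 65), 13 were called lower and none higher, with a median of −1.01. COX7B, ND-18, ND-ASHI, ATPsynB and ATPsynD were among the 13, and ATPsynF (2364 to 3955 CPM in Pum xRIP, 4591 to 7262 CPM in control xRIP, 1721 to 3264 CPM in input), the most abundant, stayed under 2-fold (−0.93, edgeR adjusted p = 0.02457). The number of these genes called lower was 2 with DESeq2 size factors, 5 with DESeq2, 10 with library totals, 31 in the 3-group fit and 3 to 8 when a library was left out.

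Mitochondrial ribosomal protein genes (45 of 67) had 1 lower call (mRpL49) among 41 tested, lost when any 1 library was left out, and a median of −0.76. They were found in all 4 libraries for 37.8% of members in Pum xRIP and 53.3% in control xRIP, and mRpS9, the most abundant, was not called (−0.70, edgeR adjusted p = 0.509). Proteasome subunit genes (22 of 33) had no call among 20 tested, with a median of −0.99 and −1.21 for Prosalpha1 (edgeR adjusted p = 0.4799). One-end genes of the vacuolar proton pump (6 of 18, median 0.46) had no call either but 1 higher with DESeq2, and VhaAC45, an accessory subunit, lay at 1.50 (edgeR adjusted p = 0.2536). Translation factor genes (16 of 40) had no call among 14 tested and 1 lower in the 3-group fit, and their median was −0.13, but 0.07 with DESeq2. In this group eEF1alpha1, the elongation factor that brings aminoacyl-tRNA to the ribosome, lay at 0.38 (edgeR adjusted p = 0.6254).

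Genes of phototransduction, the cascade that turns light into a current in photoreceptors, were one-end genes in 12 of 25 cases. Of these Arr1 was called higher and the median was 0.27, but in the 3-group fit Arr1 stayed under 2-fold (0.93) and the median was −0.05. ninaE, the main rhodopsin, had 1963, 1854, 3048 and 1707 CPM in Pum xRIP, 1143, 1158, 1825 and 1317 CPM in control xRIP and 2253 to 4796 CPM in input, and the groups overlapped (edgeR adjusted p = 0.1681). Odorant-binding protein genes (10 of 20) had 1 lower call (Obp99d), 2 in the 3-group fit, and a median of −0.58, and Obp99c overlapped between the groups (edgeR adjusted p = 0.4569). Of the 5 muscle genes tested (6 of 19 were one-end genes), 2 were lower, TpnC25D, a troponin C, and Tm1, the tropomyosin, and 0 or 1 with a library left out. Tm1 had 424.8, 348.6, 759.8 and 699.2 CPM in Pum xRIP, 1729, 1315, 1505 and 1152 CPM in control xRIP and 394.1 to 1321 CPM in input (−1.30 ± 0.32, SE; edgeR adjusted p = 0.03061). The call of Tm1 was lost without Pum xRIP library 1, 2 or 4 or control xRIP library 1, 3 or 4 (at most 0.08819).

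The share of one-end genes, 41.6% among all genes with the minimum count, varied between lists of neuronal genes. Synaptic vesicle and active zone genes were members in 4 of 20 cases and ion channel and receptor genes in 5 of 31, with no call and medians of 1.71 (n = 4) and 0.00 (n = 3). DESeq2 called 1 gene of each list higher, and the 3-group fit 1 ion channel or receptor gene. comt, the NSF ATPase of vesicle fusion, and Irk2, an inward rectifier potassium channel, were missing from 1 or more libraries of each xRIP group (edgeR adjusted p = 0.9371 and 0.869). Among 9 of 24 neuropeptide precursor genes only Nplp3 was called, with 0 or 1 more, higher, when a library was left out, and the median was 0.46. No gene of the list of 12 for Pum and its co-factors was a one-end gene. A list of genes with neuronal 3′ UTRs, used by the study from earlier work, was set beside these. Of its genes with the minimum count 13 of 247 (5.26%) were one-end genes. Of 11 tested 4 were higher and 1 lower, with a median of 1.29, against 9.5% higher and 2.28% lower over all clusters tested. When 1 library was left out 0 to 2 were higher, and in the 3-group fit 3 were, with a median of 0.05. The list of synaptosome proteins, drawn from the study's own proteomics, is another such list. Of its genes 299 of 799 (37.4%) were one-end genes, of which 12 were higher and 14 lower among 232 tested. The shares were 9.5% higher and 2.28% lower over all clusters tested, and 2.89% and 3.81% over the members tested. With a library left out, 1 to 10 were higher and 6 to 8 lower, and the median was −0.13, but 0.09 with DESeq2.

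Yolk and larval serum protein genes (3 of 4) had Yp1 higher and a median of 1.51, with 2 higher by DESeq2 and Yp1 not called without Pum xRIP library 1 (edgeR adjusted p = 0.05556). Of 13 genes of the male-specific list in the files, 5 reached the minimum count. All 5 were one-end genes, each with counts in all 4 control xRIP libraries, and none of the 5 had counts in all 4 Pum xRIP libraries. Of these 3 were called lower (Mst57Da, Mst87F and Mst84Db), 2 or 3 with a library left out and 4 with DESeq2. Mst57Db had 63.6, 0, 0 and 0 CPM in Pum xRIP, 261.6, 265.5, 403.0 and 194.2 CPM in control xRIP, and 6.07 to 266.5 CPM in input, and was not called (−4.03 ± 2.04, SE; edgeR adjusted p = 0.3372). Without Pum xRIP library 1, the only one with counts, it was called lower (edgeR adjusted p = 0.00335), as it was with no filter on low counts (0.004199).

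The last question was whether minor ends gained in the xRIP libraries. For each library, the share of counts of a one-end gene outside its main end was averaged over genes with at least 50 counts in that library. This minor-end share was 6.74%, 6.538%, 6.30% and 5.81% in the Pum xRIP libraries, 6.04%, 5.12%, 5.36% and 5.47% in the control xRIP libraries and 2.62%, 3.24%, 2.45% and 2.58% in the fne, pum, rbp9 and w118 inputs. The means were 6.35% ± 0.399, 5.50% ± 0.388 and 2.72% ± 0.352 (SD, n = 4 each). Every xRIP library lay above every input, and the 2 xRIP groups overlapped. Genes with a single cluster, 567 of the 2486 members, have no minor end and entered these means with a share of 0%. The rule itself holds the minor-end share down in the inputs, so no test against input was made. When the members were chosen again on 3 inputs with at least 300 counts, the input left out had a share of 3.14% to 4.25%, against 2.55% to 2.79% in the choosing inputs, 6.21% to 6.61% in Pum xRIP and 5.45% to 5.93% in control xRIP.

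High minor-end shares were found in few genes of the xRIP libraries. The rule limits such shares in the inputs, so the input values beside them describe the choice. A minor-end share above 10% was found in 13.6% ± 1.23 of genes in Pum xRIP and 11.1% ± 1.35 in control xRIP, against 6.92% ± 2.37 in input, and a share above 50% in 4.35% ± 0.738, 3.76% ± 0.345 and 0.0211% ± 0.0244 (SD, n = 4 each). On the other side, no minor-end count at all was seen in 71.5% ± 2.23 of genes in Pum xRIP and 71.5% ± 1.95 in control xRIP. In input it was 45.0% ± 3.56 (SD, n = 4 each). These shares include the genes with a single cluster, for which no minor end can be counted. Pooling the counts of all members gave 2.99% ± 0.199, 2.53% ± 0.176 and 2.07% ± 0.0893 (SD, n = 4 each). In the same genes with at least 50 counts in all 12 libraries, an alternative chosen after seeing the data, Pum xRIP had a mean share of 3.97% ± 0.493, control xRIP one of 4.08% ± 0.184 and input one of 2.70% ± 0.0860 (SD, n = 4 each).

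Cluster numbers, read as running along the genome, gave the place of the minor ends. The main end was the most downstream cluster in 879 (46.2%) of 1902 one-end genes with a known strand and 2 or more clusters, and the most upstream in 334 (17.6%). Minor ends upstream of the main end took 4.70% ± 0.231 of the counts in Pum xRIP and 4.28% ± 0.420 in control xRIP, against 2.18% ± 0.501 in input (SD, n = 4 each). Minor ends downstream took 2.86% ± 0.309, 2.47% ± 0.136 and 1.32% ± 0.0899 (SD, n = 4 each). Both kinds had higher shares in the xRIP groups than in input, where the rule holds them down. These shares by place are means over genes with 2 or more clusters, a known strand and at least 50 counts in the library. They do not add up to the share over all members, which include genes with a single cluster. The place of the ends was not examined in held-out inputs.

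**Figure D4:**
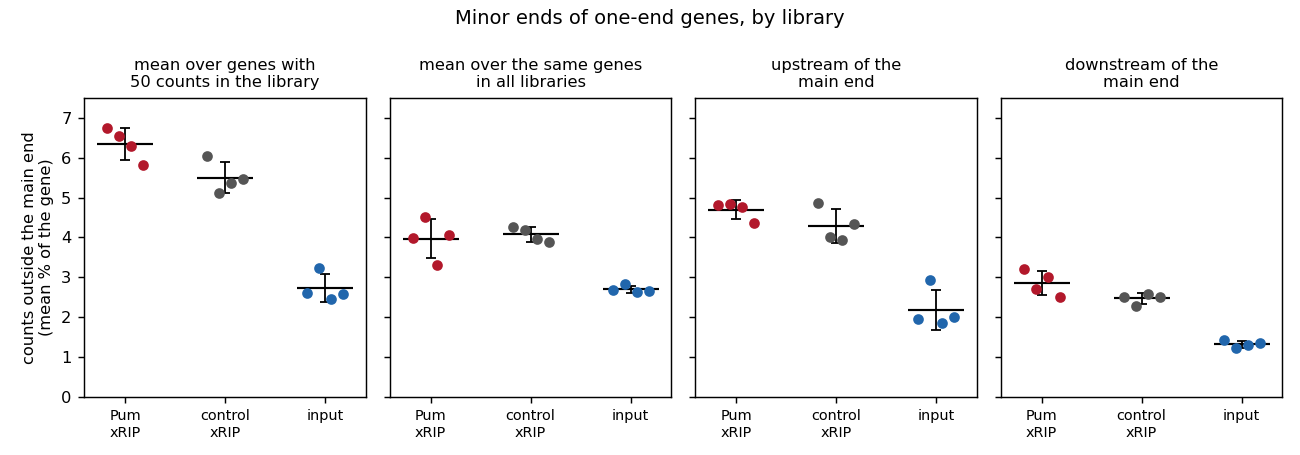
Mean minor-end share in percent (vertical axis) per library of Pum xRIP, control xRIP and input in 4 panels: all one-end genes with at least 50 counts, the same genes in all libraries, ends upstream of the main end and ends downstream of it. Points are libraries, bars are means and error bars the SD (n = 4). In the first panel the groups lie at 6.35%, 5.50% and 2.72%, and in the second at 3.97%, 4.08% and 2.70%.

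Between Pum xRIP and control xRIP, the balance of minor and main ends was tested per gene with diffSpliceDGE of edgeR. Of 1274 one-end genes tested 1 had a higher minor-end share in Pum xRIP and 0 a lower one at an adjusted p below 0.05, and 147 (11.5%) had an unadjusted p below 0.05. Among all 5071 genes tested, 16 (0.316%) were higher and 34 (0.67%) lower, and 840 (16.6%) had an unadjusted p below 0.05. In the 3-group fit the calls among one-end genes were 51 higher and 59 lower. That fit takes its spread from the inputs too, where the rule holds the minor-end share down, so these calls are a description only. Of 554 members with at least 50 counts in all 8 xRIP libraries, 31 had a mean minor-end share more than 10 points higher in Pum xRIP than in control xRIP and 31 more than 10 points lower, 310 (56.0%) were within 2 points, and the mean difference was −0.103 points. Against input, where the rule holds the share down, 30 of them were more than 10 points higher and 3 lower. A member with a single cluster has no minor end and always falls within the 2 points.

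The single call was Galphaq (2R, 12612740 to 12623197), the G protein alpha subunit of the phototransduction cascade and the most abundant one-end gene of the neuronal 3′ UTR list. Its main end had 264.9, 895.7, 512.7 and 801.3 CPM in Pum xRIP, 1049, 1385, 526.8 and 1191 CPM in control xRIP and 1163 to 2220 CPM in input. Its minor ends, among 26 clusters in all, took 55.5%, 35.4%, 43.8% and 28.7% of the counts in Pum xRIP, 0%, 2.13%, 2.11% and 1.80% in control xRIP and 5.56% to 8.07% in input. All 4 Pum xRIP libraries lay above all inputs and all control xRIP libraries below them. The log2 change of minor over main ends was 3.71 (edgeR diffSpliceDGE adjusted p = 0.01985), and the call was lost without Pum xRIP library 1, 2 or 3.

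Other genes with large differences were uneven between replicates and not called. In Diap1, the inhibitor of caspases, minor ends took 0%, 72.6%, 59.3% and 49.2% in Pum xRIP, 0%, 29.8%, 0% and 6.08% in control xRIP and 6.16% to 22.7% in input (adjusted p = 0.6439). In Nmdar2, an NMDA receptor subunit, the shares were 23.0%, 64.6%, 27.2% and 0% in Pum xRIP, 0% in all control xRIP libraries and 5.75% to 10.98% in input (adjusted p = 0.2094). CG31207 had 45.7% and 81.7% in Pum xRIP libraries 1 and 2 and 0% in all others (adjusted p = 0.1949), and barc 74.0% and 60.1% in Pum xRIP libraries 2 and 4 and 26.5% in control xRIP library 1 (adjusted p = 0.4415). In the opposite direction, arm, the fly beta-catenin, had 0% in Pum xRIP, 77.8%, 100%, 7.86% and 0% in control xRIP and at most 1.41% in input (adjusted p = 0.1809). Ykt6, a SNARE, had 5.09%, 0%, 0% and 0% in Pum xRIP and 0%, 73.7%, 74.0% and 29.6% in control xRIP (adjusted p = 0.3277), and CG14414 at most 0.362% in Pum xRIP and 85.8%, 0%, 36.7% and 23.5% in control xRIP (adjusted p = 0.1683). CG14757 had 0%, 100%, 58.8% and 27.5% in Pum xRIP, 0%, 100%, 0.279% and 0% in control xRIP and 0.602% to 1.73% in input (adjusted p = 0.633). Minor-end shares near 0% and above 50% thus stood side by side in replicates of 1 group.

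**Figure D5:**
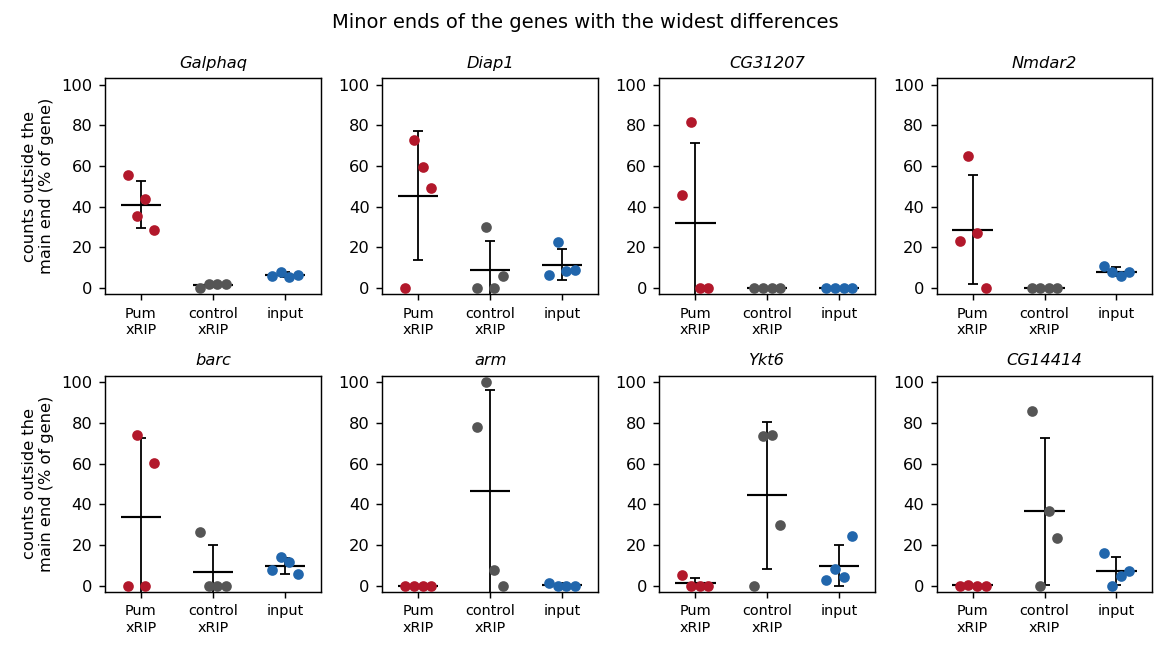
Minor-end share in percent (vertical axis) per library of 8 one-end genes in Pum xRIP, control xRIP and input, with bars for the mean and error bars for the SD (n = 4). Only Galphaq has all 4 Pum xRIP libraries, 28.7% to 55.5%, above all other libraries.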

How the data were processed

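The authors deposited raw counts per 3′-end cluster for 12 libraries of QuantSeq 3′-end sequencing, with no normalization and no molecular identifiers. Per their methods, reads were trimmed with fastp and mapped to dm6 with STAR 2.6.1b (the version as in the submitters' processing notes, which also name DESeq), signal at genomic A stretches was removed, and signal within genes or up to 500 bases downstream was clustered. Intervals and floors cover counting error only, and a floor was 3 counts over a group. Clusters carried no coordinates. Numbers were taken to run along the genome: the main cluster had the highest number in 558 and the lowest in 158 of 2241 plus-strand genes, against 173 and 530 of 2306 minus-strand genes.

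Cluster counts were tested with edgeR 4.0.16 in R 4.3.3 (quasi-likelihood F test, TMM, default expression filter, 8 libraries per comparison, Benjamini-Hochberg adjustment over all clusters) and called at an adjusted p below 0.05 and an absolute log2 fold change above 1. The SE was the log2 fold change over the square root of F. CPM was the count scaled to a library of 1000000 counts. Minor ends were tested with diffSpliceDGE on main ends against the sum of the others, in genes averaging 10 or more counts per library. Calls against the inputs, planned too, are not reported, since the inputs chose the members. Alternatives were DESeq2 1.42.0, other scalings, filters, a 3-group fit, a replicate block and leaving out libraries. The scripts were tested on simulated data. Annotation was Ensembl 115 (BDGP6.54, release 6), which held 10345 of 10422 genes. Named were the 10 highest and 5 lowest called members without overlap, the 5 and 3 extreme minor-end differences against control and 5 against input, the 10 most abundant members, those at the limits and the most abundant member of each list. Of these, 1 gene and 1 sequence window are not reported here. The members, lists and tests were chosen with earlier results of these data known.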

Additional observations from a re-analysis of the deposited data

Results flagged for a closer look

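In 16 (8.74%) of 183 groups of 4 libraries, 1 library stood apart from the other 3 by the criterion of Dixon. Chance alone gives about 1 in 20, and no explanation was tested. In Pum xRIP, the upstream minor-end share was 4.36% in library 4 and 4.77% to 4.85% in the others. CG18870 had 142.0 CPM in library 2 against 64.9 to 77.7 CPM, Diap1 68.8 CPM in library 1 against 9.12 to 16.8 CPM, CG14414 30.3 CPM in library 4 against 54.4 to 54.7 CPM, and Mst57Db 63.6 CPM in library 1 against 0.

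In control xRIP, side-IV had 8.27 CPM in library 1 against 0 in the others, Miro 2.09 CPM and CG17108 0.299 CPM in library 3 against 0, and Mst87F 85.6 CPM in library 3 against 141.7 to 149.3 CPM. Eaat1 had 189.3 CPM in library 1 against 93.4 to 100.8 CPM, and COX7B 2666 CPM in library 2 against 1967 to 2052 CPM.

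Among the inputs, the upstream minor-end share was 2.93% in pum against 1.85% to 1.995% in the others. Jon65Aiii had 131.1 CPM in w118 against 9.10 to 14.3 CPM, CG14414 33.7 CPM in fne against 22.7 to 24.6 CPM, Pask 19.96 CPM in fne against 34.1 to 37.0 CPM, and CG17108 464.9 CPM in pum against 11.7 to 60.9 CPM. CG17108, chosen after its values were seen, had 103.3, 54.8, 53.2 and 159.8 CPM in Pum xRIP, 0.299 CPM in 1 control xRIP library and 0 in the other 3, and was called higher in Pum xRIP (log2 fold change 9.89, edgeR adjusted p = 0.006967). Its own pum input was thus far above its w118 input.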

How the results depend on the processing

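Of 810 comparisons of 54 named genes with an alternative, 760 kept direction and side of the threshold, 27 lost and 20 gained the call and 3 turned direction: barc at 0.11 without control xRIP library 4 (−0.78 to 0.11 with a library left out) and RpL7A at 0.063 with DESeq2 and with its size factors. None of these 3 was called. For all shifts below the cause was not tested. The 3-group fit takes its spread from the inputs too, which chose the members, so its calls are descriptions only. Members higher in Pum xRIP than in control xRIP, 50, numbered 92 in the 3-group fit, 100 with DESeq2, 31 with a main share of 95% and 18 to 43 with a library left out. Those lower, 66, numbered 168 in the 3-group fit and 34 to 53 with a library left out. Minor-end calls, 1 higher and 0 lower, became 51 and 59 in the 3-group fit and 0 to 2 each with a library left out. The mean minor-end share in Pum xRIP, 6.35%, was 5.06% with 200 counts per gene, 2.99% pooled, 4.34% with a 95% main share, 3.97% in the same genes and 6.22% to 6.53% with a library left out. In control xRIP, 5.50%, it was 6.14% with 20 counts per gene, 4.05% with 200, 2.53% pooled, 4.21% with 95%, 4.08% in the same genes and 5.32% to 5.62%. In input, 2.72%, it was 2.07% pooled, 1.32% with 95%, 3.53% in the held-out inputs and 2.55% to 2.81%. Members with a PRE, 15.2%, were 12.8% in the last 500 bases, 12.4% in the shortest 3′ UTR and 12.1% with reversed letters, and members called higher, 63.0%, were 45.7% and 23.9% with the first and last of these.

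Same-numbered Pum xRIP and control xRIP libraries deviated together with r of 0.0114 to 0.0305 and not each library fitted its own number best, so the numbers were not read as pairs. With a replicate block, 38 members were higher and 60 lower, 32 and 47 of them called without it too, and minor ends gave 1 and 0 calls. The block lost dcma (adjusted p = 0.05709) and called Mst57Db lower (0.01691), with 5 male-specific, 3 cytoplasmic ribosomal and 12 oxidative phosphorylation genes lower, 1 ion channel or receptor gene higher, and 2 higher genes and a median of 0.41 in the neuronal 3′ UTR list. It moved the medians of the synaptic and ion channel lists to 3.52 and −0.73. In the lowest of 4 classes by input count, 24.9% of members were at 0 in Pum xRIP and 26.0% in control xRIP, and thinning all libraries to the smallest total moved recovery by less than its SD.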
